A study of Mus musculus with 6 samples.

Results

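In Raw264.7 cells, a mouse macrophage line, 38 genes of sugar breakdown, glycogen and the response to low oxygen were followed, picked by symbol from 16171 genes in the count table. They comprise 18 glycolytic enzyme genes, 2 that control phosphofructokinase, 3 at the entry of pyruvate into mitochondria, 4 of the oxygen sensor, 8 targets of the hypoxia response and 3 glycogen enzyme genes. All 38 were in the table, and 37 were expressed highly enough to be tested. The exception was Ldhb, a lactate dehydrogenase subunit, with 1 read in THCaP replicate 3 and 0 in the other libraries (a count of 0 leaves room for up to 3 reads, or 0.107 per 1000000 reads of the smallest library, from counting error only). Levels below are CPM, counts per 1000000 reads with edgeR's TMM factors for scaling, unless FPKM is named.

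The cells, wild type by label and grown in high-glucose medium, were seeded on titanium bearing titanate nanowires from an alkaline heat treatment (TH, the control) or a biomimetic calcium phosphate nanowire layer (THCaP). On both surfaces they were left for 12 h, given 1 μg/mL LPS (lipopolysaccharide, a bacterial product that activates macrophages) for 2 h and kept for 1 d more, so no library shows cells without LPS, and the oxygen tension of the cultures is not given in the sources used here. Each surface had 3 RNA-seq libraries with 28000099 to 30317108 counts. Whether these came from separate cultures is not stated, so p-values measure the spread between these libraries, which may be technical. Libraries of a group differed from each other by more than counting noise (chi-square per degree of freedom 3.84 to 48.4).

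Glycolysis splits glucose into pyruvate in the cytosol: hexokinase traps glucose, phosphofructokinase commits it to breakdown, and lactate dehydrogenase turns pyruvate into lactate. Macrophages given LPS are known for a shift towards glycolysis, in which the transcription factor HIF-1 takes part. HIF-1α, encoded by Hif1a, is marked for destruction by the Egln prolyl hydroxylases and by Vhl when oxygen is present, and otherwise switches on glycolytic and other hypoxia genes. It is controlled largely through protein stability, which transcript levels do not report.

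Transcripts of 8 of the 37 tested members were lower on THCaP and those of 1 were higher (edgeR quasi-likelihood test, adjusted p under 0.05 over all genes tested; called genes, below). Eno2 fell most, followed by Pfkfb3, Ndrg1, Gbe1, P4ha1, Hk3, Aldoa and Pfkp, and Pfkl rose. Among all 11480 genes tested, 12.0% were called lower and 11.6% higher, beside 21.6% and 2.70% of the tested members. The median log2 fold change (THCaP over TH throughout) of the tested members was -0.17, with 29 below and 8 above 0, beside a median of 0.01 over all genes tested. In 13 members every THCaP library lay below every TH library (35.1%, beside 21.3% of all genes tested), and in 6 every THCaP library lay above (16.2%, beside 22.1%). When libraries were scaled by their totals and not by TMM, the split of all calls was 1063 lower and 1904 higher in place of 1376 and 1333, the members called were 6 lower and 1 higher, and the members' median was -0.12. In bulk RNA, fewer cells of a kind and less RNA per cell cannot be told apart.

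**Figure D1:**
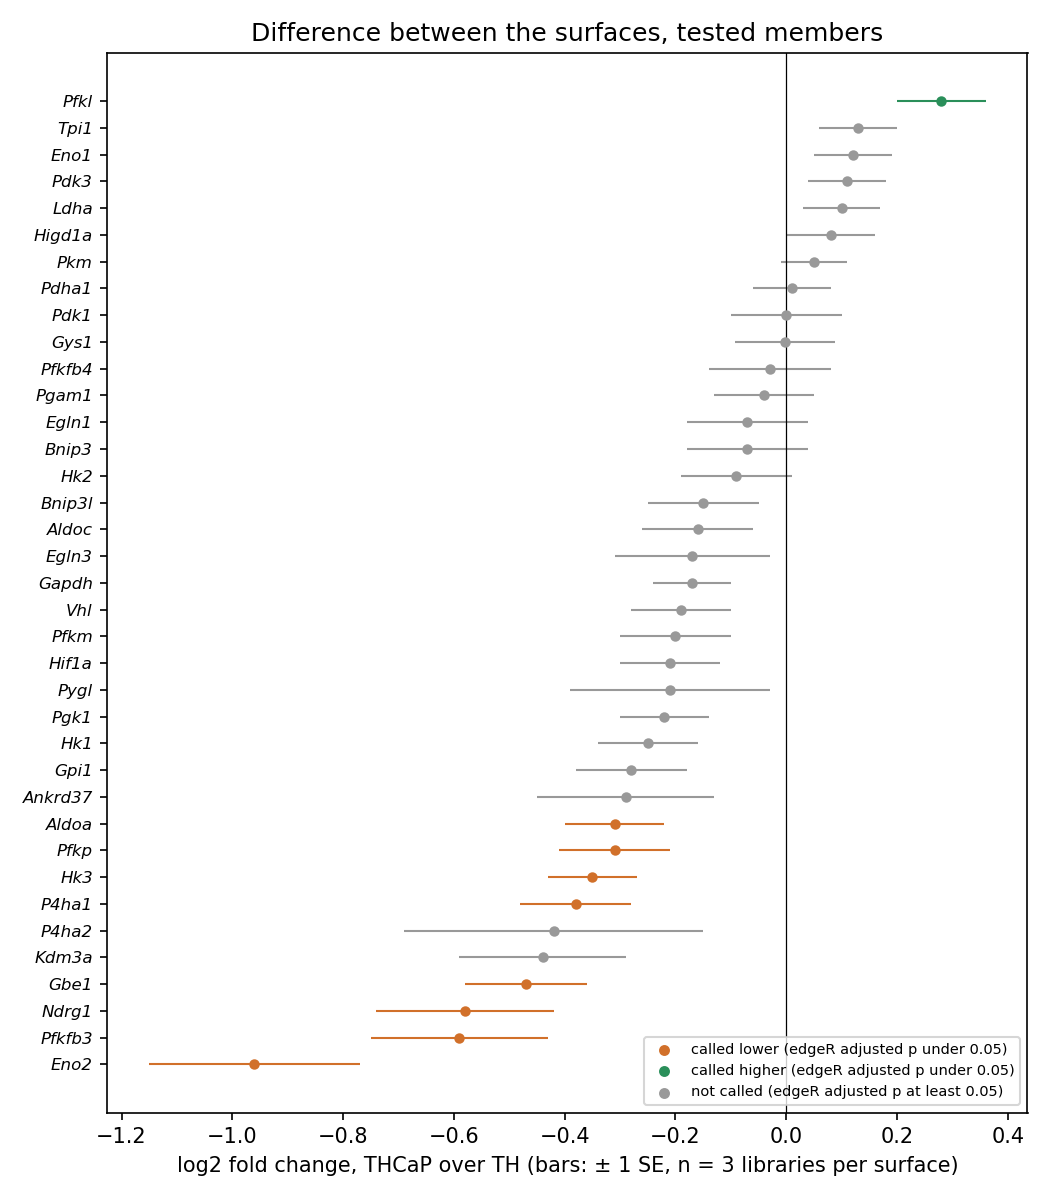
Log2 fold change of each tested member, THCaP over TH (x axis, points with ± 1 SE, 3 libraries per surface), with genes on the y axis in order of change. Eno2 lies farthest below 0 at -0.96 and Pfkl farthest above at 0.28, and 28 of the 37 members were not called.

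The number of members called depended on single libraries. It was 1 lower and 0 higher when TH replicate 2, TH replicate 3 or THCaP replicate 1 was left out, and Eno2 was that 1 gene each time. Calls over all genes dropped in these fits too, to 4.37%, 4.23% and 4.01% lower and 2.54%, 2.54% and 2.51% higher. Without TH replicate 1 the numbers were again 8 and 1 (11.9% and 9.25% of all genes), but Hif1a and Kdm3a were called lower and Aldoa and Pfkp were not. Without THCaP replicate 2 it was 5 lower and 0 higher (8.10% and 6.34% of all genes), and without THCaP replicate 3 it was 16 lower and 1 higher, while 17.4% of all genes were then called lower and 18.5% higher. The 8 members that joined the lower calls there were Hk1, Gpi1, Pfkm, Pgk1, Egln3, P4ha2, Ankrd37 and Kdm3a, with edgeR adjusted p from 0.00680 for Ankrd37 to 0.0249 for Pgk1. THCaP replicate 3 held the highest THCaP value in 29 of the 37 tested members (78.4%, beside 41.1% of all genes tested), and THCaP replicate 2 the lowest, also in 29 (78.4%, beside 41.2%). In all 8 members called lower, THCaP replicate 3 was the THCaP library nearest to TH. It was nearest in 70.3% of the tested members and in 60.5% of all genes tested.

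**Figure D2:**
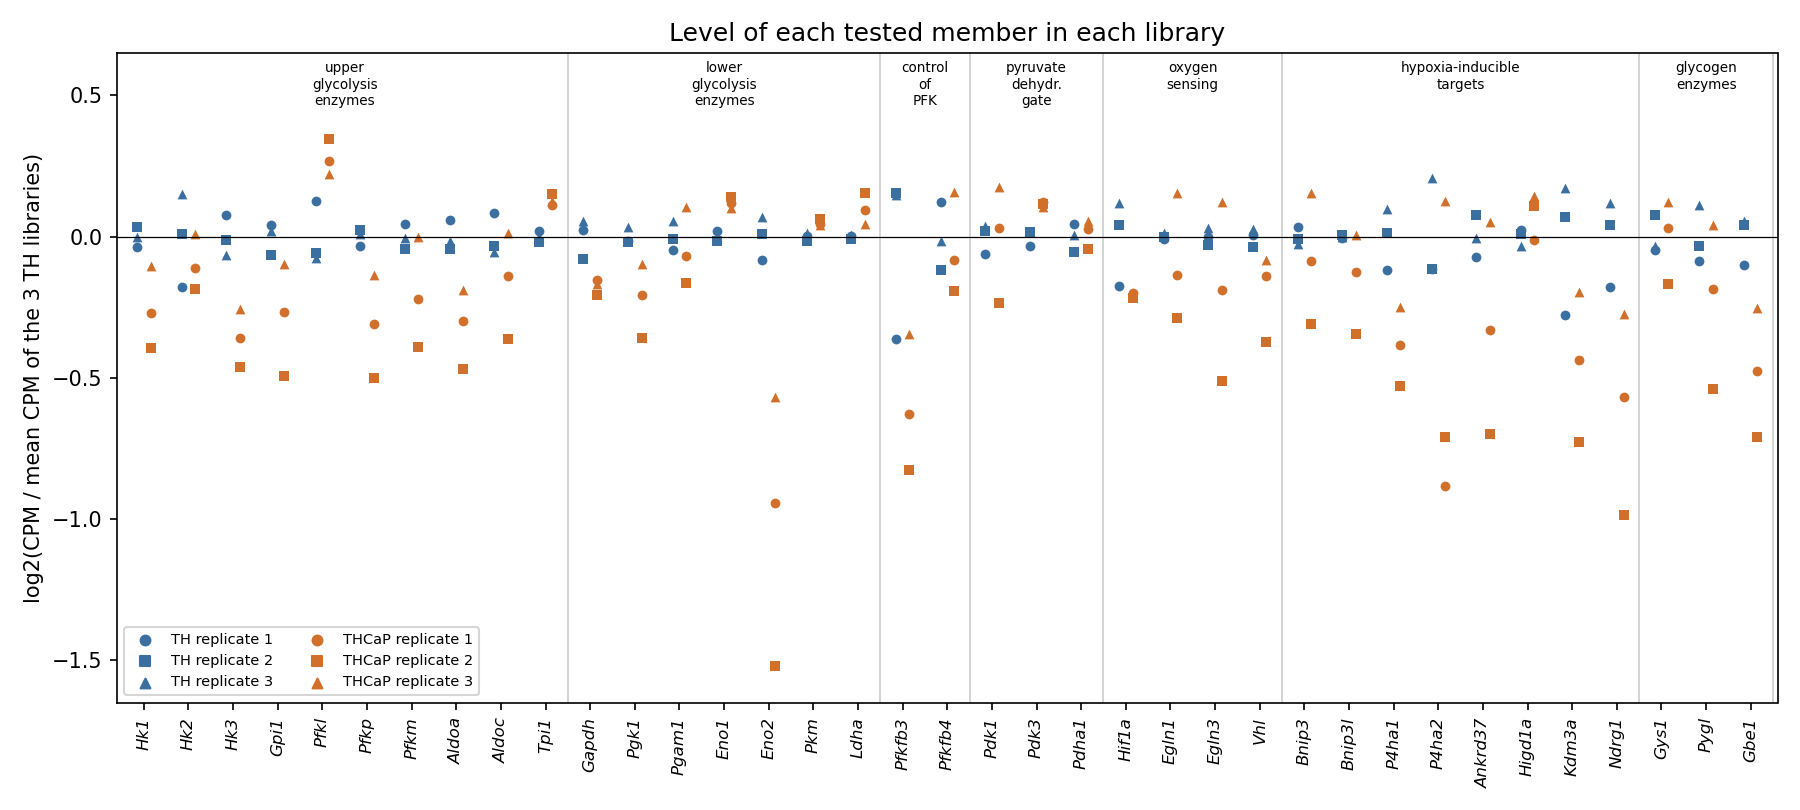
Level of each tested member in each library as log2 of its CPM over the mean CPM of the 3 TH libraries (y axis), by gene and role (x axis); blue is TH, orange is THCaP, and circle, square and triangle are replicates 1, 2 and 3. For most members the orange square lies lowest and the orange triangle highest of the THCaP libraries, the order found in the 8 members called lower.

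Upper glycolysis, from hexokinase to triose phosphate isomerase, held 3 of the lower calls and the only higher call among its 10 tested members (median log2 fold change -0.22). The shares were 30.0% and 10.0%, beside 12.0% and 11.6% of all genes tested. Summed over the 10 genes, the level was 10815, 10300 and 10544 CPM in TH replicates 1 to 3 and 9085, 8239 and 9856 CPM in THCaP replicates 1 to 3, so the surfaces did not overlap. The largest parts of this sum were Aldoa, at means of 4491 CPM on TH and 3612 CPM on THCaP, and Gpi1, which was not called, at 2521 and 2081 CPM. Lower glycolysis, from Gapdh to lactate dehydrogenase, summed to 19915 to 20342 CPM on TH and 19995 to 20341 CPM on THCaP, which overlap. The largest part of that sum was Pkm, at means of 11260 CPM on TH and 11654 CPM on THCaP. Of the 7 tested members 1 was called lower and 0 higher (14.3% and 0%). Single genes moved both ways: 3 lay lower on THCaP without overlap and 3 higher (42.9% each, beside 21.3% and 22.1% of all genes tested). All 18 glycolytic enzyme genes took 2.97% to 3.05% of a TH library's counts and 2.87% to 3.08% of a THCaP library's.

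Hk3, the hexokinase typical of myeloid cells, stood at 118, 111 and 107 CPM in TH replicates 1 to 3 and at 87.4, 81.3 and 93.8 CPM in THCaP replicates 1 to 3. Every THCaP library lay below every TH library. The fall was 1.28-fold (log2 fold change -0.35, SE 0.08, edgeR adjusted p = 0.0186), but adjusted p was 0.0675 without TH replicate 2, 0.0563 without TH replicate 3 and 0.0827 without THCaP replicate 1. Hk1, the widely expressed hexokinase, stood at 492 ± 11.6 CPM (TH) and 413 ± 42.7 CPM (THCaP) (mean ± SD, n = 3 libraries per surface here and below) with no overlap, but was not called (edgeR adjusted p = 0.0660, and 0.0380 by DESeq2). Hk2, the inducible hexokinase known as a HIF-1 target, overlapped between the surfaces at 238 ± 27.3 and 223 ± 15.1 CPM (log2 fold change -0.09, SE 0.10). Gpi1, which converts glucose phosphate to fructose phosphate, ran from 2412 to 2595 CPM on TH and from 1790 to 2358 CPM over the THCaP libraries (edgeR adjusted p = 0.0726, and 0.0417 by DESeq2).

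The phosphofructokinase genes moved apart. Pfkp, the platelet type, stood at 926, 964 and 955 CPM in TH replicates 1 to 3 and at 765, 671 and 863 CPM in THCaP replicates 1 to 3, a fall of 1.24-fold (log2 fold change -0.31, SE 0.10, edgeR adjusted p = 0.0452). Pfkl, the liver type, stood at 300, 264 and 261 CPM in the TH libraries and at 331, 349 and 321 CPM in the THCaP libraries, 1.21-fold higher (0.28, SE 0.08, edgeR adjusted p = 0.0402). Neither gene overlapped between the surfaces, and for both THCaP replicate 2 lay farthest from TH and THCaP replicate 3 nearest. Pfkm, the muscle type, overlapped at 84.3 ± 2.57 and 73.6 ± 10.1 CPM (edgeR adjusted p = 0.180). Both calls lie near the threshold. Pfkp was not called without any one of TH replicates 1, 2 and 3 and THCaP replicates 1 and 2 (adjusted p = 0.0651 to 0.146), nor with library totals (0.0801). Pfkl had an adjusted p of 0.151 and 0.163 when TH replicate 2 or 3 was left out, of 0.135 and 0.0811 when THCaP replicate 1 or 2 was, and of 0.0518 with the replicate number as a block.

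Aldoa, the aldolase that splits fructose bisphosphate, stood at 4674, 4354 and 4445 CPM in TH replicates 1 to 3 and at 3649, 3246 and 3942 CPM in THCaP replicates 1 to 3. The surfaces did not overlap, and the fall was 1.24-fold (edgeR log2 fold change -0.31, SE 0.09, adjusted p = 0.0302). The call was lost with library totals (adjusted p = 0.0548) and without any one of TH replicates 1, 2 and 3 and THCaP replicates 1 and 2 (0.0570 to 0.108). Its relative Aldoc overlapped at 276 ± 14.8 and 248 ± 32.1 CPM. Tpi1, the triose phosphate isomerase, lay between 1101 and 1131 CPM on TH and between 1206 and 1240 CPM on THCaP, without overlap but not called (log2 fold change 0.13, SE 0.07, edgeR adjusted p = 0.185).

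In lower glycolysis Eno2, the gamma enolase known from neurons and as a hypoxia-inducible gene, showed the largest difference of all members. It stood at 499, 532 and 554 CPM in TH replicates 1 to 3 and at 275, 184 and 356 CPM in THCaP replicates 1 to 3. The THCaP libraries differed among themselves by more than the TH libraries did, yet all lay below TH. The fall was 1.94-fold (edgeR log2 fold change -0.96, SE 0.19, adjusted p = 0.0104). The call held without each library in turn (adjusted p from 3.33e-04 to 0.0414) and against a fold of 1.2 in place of no change (0.0375), and was lost only, among the 17 alternatives, with unfiltered FPKM (0.0591).

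Eno1, the main enolase, lay at 1887 to 1933 CPM on TH and at 2045 to 2105 CPM on THCaP, higher in every THCaP library but not called (edgeR log2 fold change 0.12, SE 0.07, adjusted p = 0.213). The same held for Pkm, the pyruvate kinase, at 11260 ± 105 and 11654 ± 89.1 CPM (0.05, SE 0.06, adjusted p = 0.596) and for Ldha, the lactate dehydrogenase A subunit, at 2509 ± 13.9 and 2686 ± 104 CPM (0.10, SE 0.07, adjusted p = 0.320). Pgk1, the phosphoglycerate kinase on chromosome X, lay the other way without overlap, at 2923 ± 60.4 CPM (TH) and 2516 ± 226 CPM (THCaP) (-0.22, SE 0.08, edgeR adjusted p = 0.0832). Gapdh, often used as a reference gene, was at 128 ± 6.11 and 114 ± 1.90 CPM (-0.17, SE 0.07, edgeR adjusted p = 0.116), and Pgam1, the phosphoglycerate mutase, overlapped at 856 ± 31.1 and 834 ± 80.4 CPM.

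Sequence copies limit several of these levels. Of the 50-base stretches of the longest coding transcript in GENCODE vM21, 82.5% in Gapdh also occur in transcripts of other genes, 222 in all, of which 215 are pseudogenes. The share was 72.2% for Eno1, 68.0% for Pgk1, 41.5% for Pgam1, 34.4% for Pkm and 62.4% for the hypoxia gene Bnip3. How reads that fit several places were counted is not given in the sources used here, and counts of these genes are therefore uncertain. Eno1b, a near copy of Eno1 with its own row, stood at 580 ± 13.0 CPM (TH) and 626 ± 20.9 CPM (THCaP). Of the called members, Eno2 shared 0.3% of its stretches, Hk3, P4ha1 and Gbe1 0.0%, Pfkfb3 0.6%, Pfkl 0.1%, Aldoa 13.5%, Ndrg1 14.6% and Pfkp 17.1%. The Pfkp stretches lie where its exons overlap by up to 748 bases with Pitrm1 on the opposite strand, and Ndrg1 overlaps Gm17035 and Gm2895 in the same way. The strand setting of the counting is not given, so reads of such partners cannot be told apart.

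On a per-length scale, which allows genes to be compared, the highest glycolytic transcripts on TH by the deposited gene lengths were Aldoa at 1903 ± 76.4 FPKM (the authors' fragments per 1000 bases and 1000000 reads), Pkm at 1806 ± 14.0 FPKM and Pgk1 at 1572 ± 22.4 FPKM. The order on THCaP was Pkm at 1939 ± 9.95, Aldoa at 1588 ± 157 and Pgk1 at 1404 ± 129 FPKM, where Aldoa and Pgk1 differ by less than the sum of their SDs. At the other end were Pfkm at 25.0 ± 0.832 FPKM on TH and 22.6 ± 3.14 FPKM on THCaP and Hk3 at 31.6 ± 1.77 and 25.7 ± 1.89 FPKM. Gapdh stood at 72.3 ± 3.25 and 66.6 ± 1.29 FPKM, far below its neighbours Tpi1 (746 ± 12.4 and 847 ± 9.91 FPKM) and Pgk1. The levels of Gapdh, Pgk1 and Pkm carry the limit of shared sequence given above (82.5%, 68.0% and 34.4% of their stretches), so their order is uncertain. The gene lengths behind the deposited FPKM are 5342 bases for Ldha and 6119 bases for Pkm, against 1815 and 2432 bases for the longest coding transcripts in GENCODE vM21. The order depends on this choice: with the latter lengths for all genes, an alternative added after seeing the data, Pkm (4544 on TH) led Aldoa (2847) and Pgk1 (1572), and Ldha (1357) came next.

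**Figure D3:**
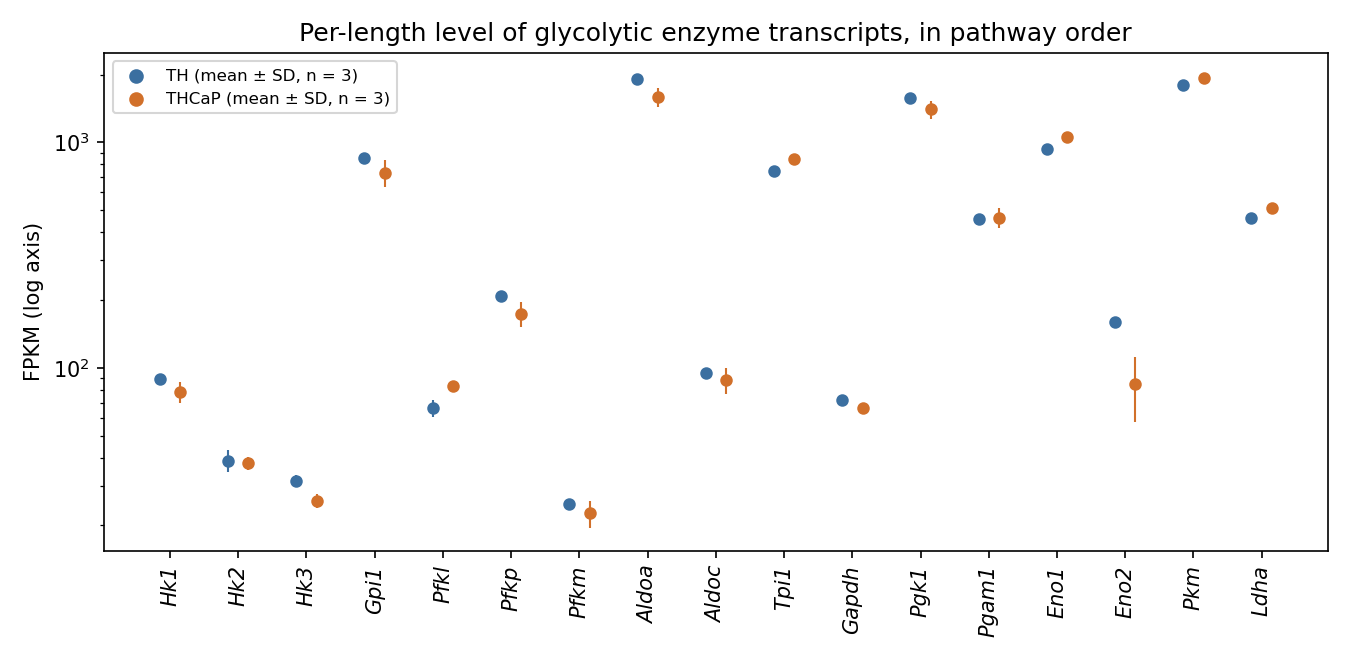
FPKM of the 17 tested glycolytic enzyme genes in pathway order (y axis, log scale; mean ± SD of 3 libraries per surface, blue TH, orange THCaP). Aldoa, Pgk1 and Pkm stand highest, and Eno2 shows the widest relative gap between the surfaces.

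The make-up of enzyme families was compared as each gene's share of its family's summed FPKM in each library. Eno2 held 13.7%, 14.7% and 15.1% of enolase in the TH libraries against 7.53%, 5.10% and 9.63% in the THCaP libraries (replicates 1 to 3), a difference of -7.09 points. With Eno1b added to the family, an alternative chosen after seeing the data, the share was 11.2% ± 0.637 on TH and 5.64% ± 1.78 on THCaP. Pfkl held 22.1% ± 1.61 of phosphofructokinase on TH and 29.9% ± 3.57 on THCaP, and Pfkp 69.5% ± 1.79 and 62.1% ± 3.10. Of 14 shares compared in 10 families, 8 did not overlap between the surfaces, counting both directions. They were those of Hk3, Pfkl, Pfkp, Aldoc, Eno2, Pfkfb4, Bnip3l and Egln3. For comparison, the CPM of 21.3% of all genes tested lay lower on THCaP without overlap, and that of 22.1% higher. Shares within the hexokinases and within the phosphofructokinases depend on each other, so the 14 are not independent. Each of the 8 shares without overlap had an exact two-sided permutation p of 0.1, the smallest that 3 against 3 libraries allow. It was 0.175 after Benjamini-Hochberg adjustment over the 14. Among hexokinases, Hk1 made up 55.9% ± 0.906 and 55.1% ± 0.837 and Hk2 24.3% ± 2.21 and 26.7% ± 0.561, both with overlap, and Hk3 19.8% ± 1.53 and 18.2% ± 0.312. Ldha supplied all but at most 0.00540% of lactate dehydrogenase in any library.

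**Figure D4:**
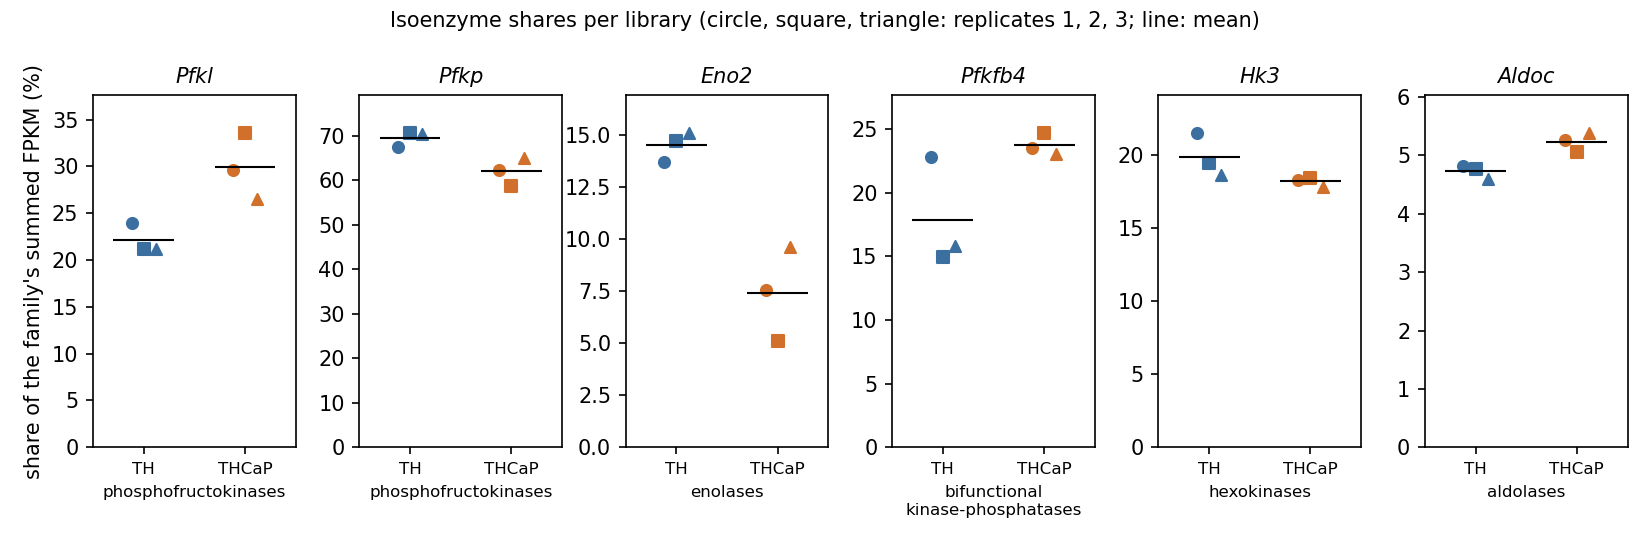
Share of 6 isoenzyme genes in the summed FPKM of their family (y axis, percent, from 0), by surface; points are libraries and lines are means of 3. Each THCaP point lies above all TH points for Pfkl, Aldoc and, narrowly, Pfkfb4, and below them for Pfkp, Eno2 and, narrowly, Hk3.

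Pfkfb3 and Pfkfb4 encode bifunctional enzymes that set the level of the sugar phosphate activating phosphofructokinase, and Pfkfb3 has the stronger kinase activity. Pfkfb3 stood at 160, 229 and 228 CPM in TH replicates 1 to 3 and at 133, 116 and 162 CPM in THCaP replicates 1 to 3. THCaP replicate 3 lay just above TH replicate 1, so the surfaces overlapped. The fall was 1.5-fold (log2 fold change -0.59, SE 0.16, edgeR adjusted p = 0.0280). Leaving out TH replicate 2 or 3 gave an adjusted p of 0.103 each, and leaving out THCaP replicate 1 or 2 gave 0.0897 and 0.0505. Pfkfb4 overlapped between the surfaces, at 33.5 ± 2.81 and 32.8 ± 4.21 CPM (-0.03, SE 0.11, edgeR adjusted p = 0.852), and its share of the pair was 17.8% ± 4.32 on TH and 23.8% ± 0.852 on THCaP, with TH replicate 1, at 22.8%, next to the THCaP libraries.

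At the pyruvate dehydrogenase gate 0 of 3 members were called by edgeR or DESeq2, and 0 had an unadjusted p under 0.05. Of all genes tested, edgeR called 12.0% lower and 11.6% higher. Pdk1, a HIF-1 target that blocks the entry of pyruvate into mitochondria, stood at 385 ± 14.0 CPM (TH) and 385 ± 53.9 CPM (THCaP), with THCaP replicates 2 and 3 at 327 and 434 CPM on either side of all TH libraries. Pdk3, another such kinase, lay at 80.2 ± 1.56 and 86.8 ± 0.496 CPM without overlap (0.11, SE 0.07, edgeR adjusted p = 0.251). Pdha1, a catalytic subunit of pyruvate dehydrogenase itself, stood at 145 ± 4.98 and 145 ± 4.99 CPM.

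The 4 oxygen sensing members all had negative log2 fold changes; edgeR and DESeq2 called 0, and 1 had an unadjusted p under 0.05. Hif1a stood at 174, 202 and 213 CPM in TH replicates 1 to 3 and at 171, 169 and 171 CPM in THCaP replicates 1 to 3, a log2 fold change of -0.21 (SE 0.09, edgeR adjusted p = 0.117). Without TH replicate 1, the lowest TH library, its adjusted p was 0.0277. Egln3, the prolyl hydroxylase that is itself hypoxia-inducible, stood at 269, 264 and 275 CPM on TH and at 236, 189 and 293 CPM on THCaP, and Egln1, the main oxygen sensor, at 190 ± 1.39 and 181 ± 28.9 CPM. The THCaP libraries of both genes spread to either side of the narrow TH range, and without THCaP replicate 3 the edgeR adjusted p was 0.0233 for Egln3. Vhl lay at 56.6 ± 1.28 and 49.5 ± 5.14 CPM (edgeR adjusted p = 0.152).

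Of the 8 hypoxia-inducible targets, 2 fell (25.0%, beside 12.0% of all genes tested). Ndrg1, a stress-responsive gene induced by hypoxia, stood at 1092, 1273 and 1344 CPM in TH replicates 1 to 3 and at 834, 625 and 1023 CPM in THCaP replicates 1 to 3. All THCaP libraries lay below TH, and the fall was 1.49-fold (log2 fold change -0.58, SE 0.16, edgeR adjusted p = 0.0299; 0.0927 without TH replicate 2, 0.105 without TH replicate 3 and 0.0848 without THCaP replicate 1). P4ha1, a catalytic subunit of the collagen prolyl hydroxylase, stood at 291, 319 and 338 CPM on TH and at 242, 219 and 266 CPM on THCaP. It did not overlap either, and fell 1.30-fold (-0.38, SE 0.10, edgeR adjusted p = 0.0218; 0.0777, 0.0991 and 0.0879 without the same 3 libraries in that order).

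The other targets were not called. Kdm3a, a histone demethylase, stood at 165 ± 26.0 CPM (TH) and 122 ± 21.9 CPM (THCaP) (log2 fold change -0.44, SE 0.15, edgeR adjusted p = 0.0562; 0.0144 by DESeq2, 0.0462 with no filter, 0.0113 with the replicate block, 0.0368 without TH replicate 1 and 0.00791 without THCaP replicate 3). Ankrd37, an ankyrin repeat gene, stood at 60.3, 66.9 and 63.2 CPM on TH and at 50.5, 39.1 and 65.7 CPM in the THCaP libraries (-0.29, SE 0.16, edgeR adjusted p = 0.194). Bnip3 and Bnip3l, mitophagy receptors, overlapped at 706 ± 15.7 and 674 ± 108 CPM and at 291 ± 0.824 and 263 ± 32.0 CPM. P4ha2 was near 4 CPM or lower (3.94 ± 0.524 and 2.95 ± 1.18 CPM), and Higd1a, a mitochondrial hypoxia gene, was the only target with a positive value (0.08, SE 0.08, edgeR adjusted p = 0.456).

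Among the 3 glycogen enzymes Gbe1, which adds branches to glycogen, fell. It stood at 329, 363 and 367 CPM in TH replicates 1 to 3 and at 254, 216 and 296 CPM in THCaP replicates 1 to 3, without overlap. The fall was 1.38-fold (log2 fold change -0.47, SE 0.11, edgeR adjusted p = 0.0204), and adjusted p was 0.0757 and 0.0806 with TH replicate 2 or 3 left out and 0.0765 with THCaP replicate 1 left out. Gys1, the glycogen synthase, stood at 181 ± 8.39 and 181 ± 18.1 CPM (edgeR adjusted p = 0.992), and Pygl, a glycogen phosphorylase, at 5.97 ± 0.431 and 5.17 ± 1.01 CPM (adjusted p = 0.413).

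Promoters are shown for all called members in the promoter table, all but Ndrg1, and for Ldha, because HIF-1 is known to bind ACGTG and GCGTG, which could be looked for there. Windows run from 250 bases before to 50 after a RefSeq start on GRCm38.p6, 5′ to 3′ on the gene's strand, and capitals mark either motif on either strand; 2 matches overlap within each CACGTG. Where a gene has several starts, the window with the most matches is shown, or the first by position among equals. The first 7 were called lower, Pfkl was called higher, and Ldha was not called and held the most matches of any member.
Eno2, chr6:124769624-124769923, minus strand: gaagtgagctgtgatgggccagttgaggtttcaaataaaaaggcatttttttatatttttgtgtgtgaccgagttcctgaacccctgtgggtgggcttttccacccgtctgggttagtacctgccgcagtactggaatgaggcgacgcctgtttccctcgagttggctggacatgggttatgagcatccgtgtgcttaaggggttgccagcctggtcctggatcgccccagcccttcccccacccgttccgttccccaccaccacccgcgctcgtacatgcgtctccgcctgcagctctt
Gbe1, chr16:70313699-70313998, plus strand: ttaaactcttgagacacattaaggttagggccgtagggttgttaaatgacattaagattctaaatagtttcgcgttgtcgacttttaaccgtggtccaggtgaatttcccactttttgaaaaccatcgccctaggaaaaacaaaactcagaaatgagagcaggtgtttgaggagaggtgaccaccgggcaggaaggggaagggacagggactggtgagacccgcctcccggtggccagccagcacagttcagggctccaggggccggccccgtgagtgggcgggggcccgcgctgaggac
P4ha1, chr10:59323046-59323345, plus strand: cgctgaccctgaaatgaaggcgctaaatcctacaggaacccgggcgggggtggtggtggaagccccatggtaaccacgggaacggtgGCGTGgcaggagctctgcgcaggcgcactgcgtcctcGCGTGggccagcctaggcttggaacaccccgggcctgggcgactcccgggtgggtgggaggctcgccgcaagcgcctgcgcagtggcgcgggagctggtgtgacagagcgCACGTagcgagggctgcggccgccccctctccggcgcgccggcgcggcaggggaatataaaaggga
Pfkfb3, chr2:11502041-11502340, minus strand: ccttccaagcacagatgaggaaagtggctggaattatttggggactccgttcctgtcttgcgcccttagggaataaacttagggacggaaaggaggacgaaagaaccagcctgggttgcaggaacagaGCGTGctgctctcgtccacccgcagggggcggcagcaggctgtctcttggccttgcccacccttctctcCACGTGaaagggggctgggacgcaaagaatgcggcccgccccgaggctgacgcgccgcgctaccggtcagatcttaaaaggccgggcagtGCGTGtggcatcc
Hk3, chr13:55021336-55021635, minus strand: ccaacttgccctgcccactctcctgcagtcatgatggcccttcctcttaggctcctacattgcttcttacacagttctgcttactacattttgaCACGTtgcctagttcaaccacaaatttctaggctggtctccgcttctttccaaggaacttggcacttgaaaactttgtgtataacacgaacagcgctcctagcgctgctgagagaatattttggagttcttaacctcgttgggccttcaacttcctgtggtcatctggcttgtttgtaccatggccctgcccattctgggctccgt
Aldoa, chr7:126799129-126799428, minus strand: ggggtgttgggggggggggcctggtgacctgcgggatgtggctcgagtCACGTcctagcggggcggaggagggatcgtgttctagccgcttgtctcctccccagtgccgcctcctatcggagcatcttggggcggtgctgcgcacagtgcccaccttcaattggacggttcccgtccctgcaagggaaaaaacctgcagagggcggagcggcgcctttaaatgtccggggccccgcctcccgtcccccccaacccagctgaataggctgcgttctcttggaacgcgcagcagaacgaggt
Pfkp, chr13:6648722-6649021, minus strand: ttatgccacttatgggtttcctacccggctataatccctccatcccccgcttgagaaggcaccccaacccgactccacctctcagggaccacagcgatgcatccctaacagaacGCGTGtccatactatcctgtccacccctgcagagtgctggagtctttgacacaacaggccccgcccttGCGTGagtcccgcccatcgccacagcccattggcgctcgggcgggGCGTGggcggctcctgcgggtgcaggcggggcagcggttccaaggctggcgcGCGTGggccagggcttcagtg
Pfkl, chr10:78009758-78010057, minus strand: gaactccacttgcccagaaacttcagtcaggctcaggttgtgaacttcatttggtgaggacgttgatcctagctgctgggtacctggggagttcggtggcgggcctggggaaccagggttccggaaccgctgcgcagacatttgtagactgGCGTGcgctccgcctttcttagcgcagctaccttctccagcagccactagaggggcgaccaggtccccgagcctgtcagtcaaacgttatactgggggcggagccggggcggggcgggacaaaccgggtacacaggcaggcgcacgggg
Ldha, chr7:46845554-46845853, plus strand: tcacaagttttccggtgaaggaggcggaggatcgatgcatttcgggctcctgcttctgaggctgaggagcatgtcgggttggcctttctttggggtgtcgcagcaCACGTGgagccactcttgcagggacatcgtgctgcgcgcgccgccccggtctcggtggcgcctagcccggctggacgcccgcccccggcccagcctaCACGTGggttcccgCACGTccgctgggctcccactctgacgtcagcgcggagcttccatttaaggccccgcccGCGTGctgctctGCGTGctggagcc
Eno2 and Gbe1, with the largest and the fourth largest fall, held no match in this window. Pfkfb3 and Pfkp held 4 matches each, P4ha1 3, Hk3, Aldoa and Pfkl 1 each, and Ldha 7. Another start of Pfkfb3 held 1, another of Ldha 2, and the other two of Aldoa 1 and 0. A promoter was given for 36 of the 38 members, with Bnip3l and Ndrg1 left out. At least 1 match stood in 38 of the members' 51 promoter windows (74.5%), in 7 of the 10 windows of members called lower, and in 43.8% of all 32851 windows in the table. The 51 windows belong to 36 genes and the 10 to 7 genes. Windows of the same gene can overlap and hold the same match, as in Aldoa, so they are not independent. Members' windows were richer in G and C, at a mean of 61.3% beside 53.8%. A match is a string of letters and not a measured binding site.

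Positions are from GENCODE vM21 (GRCm38, which is mm10), where all called members are protein coding. Eno2 lies on chromosome 6 at 124760053 to 124769673, close to Tpi1 (124810586 to 124814296) and Gapdh (125161715 to 125166467), which were not called. Pfkfb3 lies on chromosome 2 at 11471433 to 11554077, Ndrg1 on chromosome 15 at 66929318 to 66969640 and Gbe1 on chromosome 16 at 70313949 to 70569716. P4ha1 (59323296 to 59373304) and Pfkl (77986947 to 78010083) are on chromosome 10, Hk3 (55005985 to 55021385) and Pfkp (6579768 to 6648777) on chromosome 13, and Aldoa is on chromosome 7 at 126795234 to 126800751. GENCODE gives the symbol Aldoa to 2 genes, the other at 126800790 to 126809108 on the same strand, and the position given is that of the gene with the longest coding transcript. The counts are given per gene, so exons, introns and UTRs cannot be told apart.

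Genes of the same pathways outside the 38 moved in both directions. Of 32 tested further hypoxia-inducible targets, 17 were lower and 1 higher. The shares were 53.1% and 3.12%, beside 12.0% and 11.6% of all genes tested. This list and the further lists below were chosen with earlier results of these data known, so their shares are descriptive only. The median log2 fold change was -0.32, beside 0.01. The largest falls among those with a mean of at least 5 CPM over all 6 libraries were in the clock-related repressors Bhlhe41 (-0.99, SE 0.22) and Bhlhe40 (-0.66, SE 0.15), the oxidoreductase Ero1a (-0.75, SE 0.17) and the peptide hormone Adm (-0.73, SE 0.21), with edgeR adjusted p from 0.0154 to 0.0351. Below that level, the growth factor gene Pgf had the largest called fall of the list (-1.27, SE 0.27, edgeR adjusted p = 0.0136), and the nuclear receptor gene Rora fell by 0.83 (SE 0.23, adjusted p = 0.0298). Both, and the 1 that rose, are named after their values were seen. The 1 that rose was the transferrin receptor Tfrc (0.47, SE 0.15, edgeR adjusted p = 0.0437). It was not called by limma-voom or with any TH library or THCaP replicate 1 left out. The number lower was 17, 4 and 2 with TH replicate 1, 2 or 3 left out and 3, 11 and 24 with THCaP replicate 1, 2 or 3 left out. The share of all genes called lower in the same fits moved the same way, at 11.9%, 4.37%, 4.23%, 4.01%, 8.10% and 17.4% in that order.

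Sugar and lactate carriers split: of 11 tested, 3 were called lower and 1 higher (27.3% and 9.09%, beside 12.0% and 11.6% of all genes tested). The glucose transporters Slc2a1 (log2 fold change -0.34, SE 0.09) and Slc2a3 (-0.46, SE 0.14) and Bsg, the partner protein of lactate carriers (-0.47, SE 0.10), fell, with edgeR adjusted p of 0.0291, 0.0432 and 0.0113. Slc16a1, a lactate carrier, rose from 185, 192 and 191 CPM in TH replicates 1 to 3 to 254, 299 and 210 CPM in THCaP replicates 1 to 3 (0.43, SE 0.12, edgeR adjusted p = 0.0303). In the pentose phosphate pathway, which diverts glucose phosphate to make NADPH and ribose, 4 of 8 genes rose and 0 fell (by edgeR; 0 fell at an unadjusted p under 0.05, and 0 by DESeq2). Pgd, which makes NADPH and a pentose phosphate, stood at 218, 174 and 179 CPM on TH and at 300, 387 and 233 CPM in the THCaP libraries (0.69, SE 0.17, edgeR adjusted p = 0.0205). G6pdx, the pathway's entry enzyme, rose by 0.50 on the log2 scale (SE 0.14, edgeR adjusted p = 0.0342). Tkt, a transketolase, and H6pd, the pathway's entry enzyme in the endoplasmic reticulum, each rose by 0.28 (SE 0.08, edgeR adjusted p = 0.0379 and 0.0408). With each library left out in turn, the H6pd call was kept in 0 of 6 fits, those of Tkt and G6pdx in 1 each and that of Pgd in 3. With TH replicate 1, 2 or 3 left out the pentose phosphate genes had 2, 0 and 0 higher calls and the carriers 1, 1 and 0 lower and 0 higher calls. With THCaP replicate 1, 2 or 3 left out these were 0, 1 and 5 for the pentose phosphate genes and 0, 1 and 3 lower and 0, 0 and 1 higher for the carriers. Calls over all genes moved as well. In the same 6 fits, in that order, 9.25%, 2.54%, 2.54%, 2.51%, 6.34% and 18.5% of all genes were called higher. The shares called lower were 11.9%, 4.37%, 4.23%, 4.01%, 8.10% and 17.4%.

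Of 17 further glycogen genes 3 fell and 1 rose: Gyg, the primer protein of glycogen (-0.33, SE 0.10), Ugp2, which makes the activated glucose for glycogen (-0.29, SE 0.07), and the lysosomal glucosidase Gaa (-0.24, SE 0.08) fell, and the phosphorylase kinase subunit Phka1 rose (0.30, SE 0.08; edgeR adjusted p from 0.0198 to 0.0485). The shares, 17.6% lower and 5.88% higher, lie near those of all genes (12.0% and 11.6%). With library totals 1 fell and 2 rose, and with log2 FPKM plus 1 or 0.1 1 fell and 1 rose. Leaving out each TH and then each THCaP library in order of number gave 1, 0, 0, 0, 1 and 3 falls and 0, 0, 0, 0, 1 and 1 rises. Of 13 other glycolytic and gluconeogenic enzymes the mitochondrial Pck2 (0.34, SE 0.07) and the ADP-dependent glucokinase Adpgk (0.31, SE 0.08) rose and 0 fell (edgeR; 0 fell at an unadjusted p under 0.05, and 0 by DESeq2). The share that rose, 15.4%, lies near that of all genes tested (11.6%). The rises numbered 3, 0 and 0 with TH replicate 1, 2 or 3 left out and 0, 1 and 2 with THCaP replicate 1, 2 or 3 left out. In these 6 fits, in that order, 9.25%, 2.54%, 2.54%, 2.51%, 6.34% and 18.5% of all genes were called higher. The shares called lower were 11.9%, 4.37%, 4.23%, 4.01%, 8.10% and 17.4%. In the rest of the oxygen sensor 1 of 9 was called higher (11.1%, beside 11.6% of all genes tested). It was the elongin subunit Elob (0.34, SE 0.11, edgeR adjusted p = 0.0478). The call was lost with TH replicate 2 or 3 or with THCaP replicate 1 or 2 left out. DESeq2 also called 1 lower. Of 8 other pyruvate dehydrogenase genes edgeR and DESeq2 called 0, with 1 at an unadjusted p under 0.05, and edgeR called 1 lower without TH replicate 1 and 2 higher without THCaP replicate 3. Dlat and Dld, the ones with the highest mean CPM, which does not allow for gene length, had log2 fold changes of 0.25 (SE 0.10) and 0.07 (SE 0.10).

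The labelled cell type was checked by markers. Of 12 macrophage markers 11 exceeded 20 CPM in every library and Mertk was under 1 CPM, with a summed level of 3439 to 3980 CPM on TH and 3577 to 3761 CPM on THCaP. Lyz2 was the only one called (edgeR log2 fold change 0.63, SE 0.16, adjusted p = 0.0223). Of 9 stromal and bone-forming cell markers with counts given, 8 were under 1 CPM in every library (sum 1.67 to 2.41 CPM). So were all 5 lymphoid markers (0.307 to 0.702 CPM) and all 5 neutrophil markers with counts given (at most 0.0721 CPM, with S100a8 at 0 throughout). These lists held 10, 8 and 6 markers. No counts were given for Col3a1 (stromal), Cd8a, Nkg7 and Ncr1 (lymphoid), S100a9 (neutrophil) and Emcn (endothelial), so these could not be checked. Of 4 endothelial markers Pecam1, which macrophages also express, was above 1 CPM, and the list summed to 4.55 to 5.65 CPM on TH and 2.27 to 4.06 CPM on THCaP; its part in the results was not tested.

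**Figure D5:**
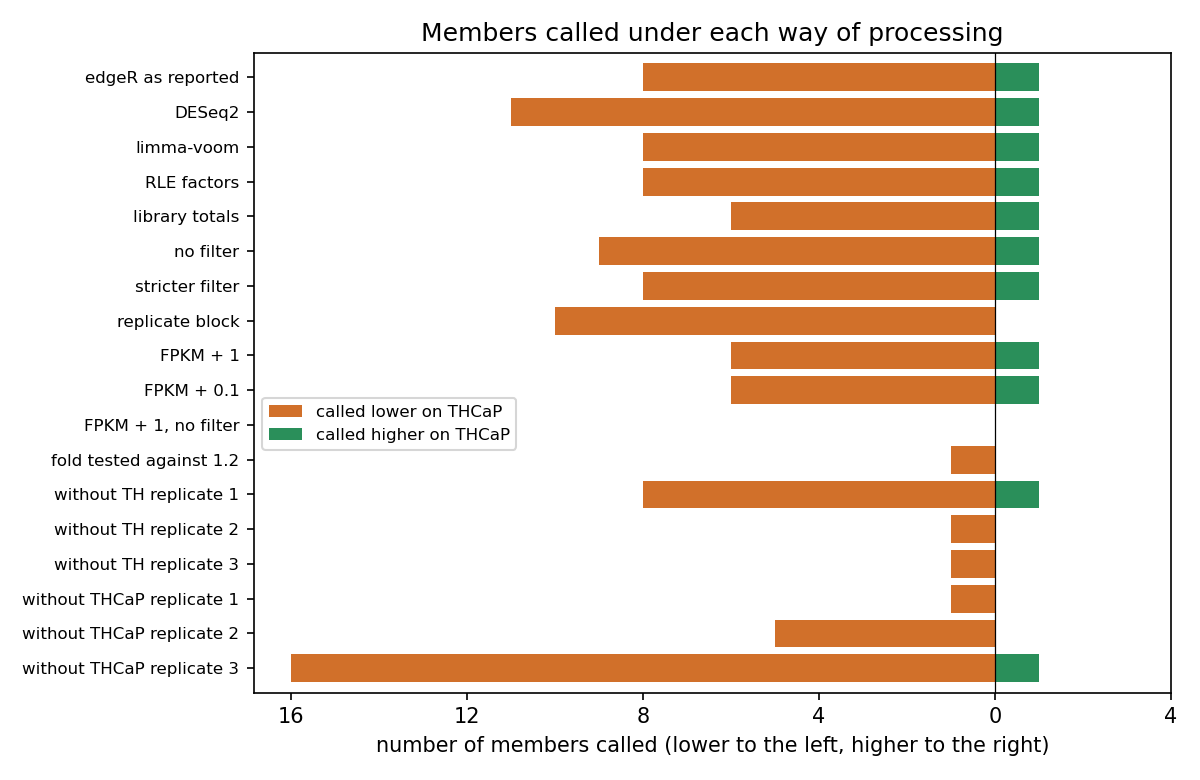
Number of members called lower (orange, left of 0) and higher (green, right of 0) on THCaP (x axis) with edgeR as reported and under 17 alternatives (y axis). The reported 8 and 1 become 16 and 1 without THCaP replicate 3, and 1 and 0 when TH replicate 2 or 3 or THCaP replicate 1 is left out.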

How the data were processed

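RNA sequencing of 6 Raw264.7 libraries, 3 per surface, was analysed from gene counts. The counts are whole reads per gene symbol, deposited without normalization. The submitters' processing notes name fastp, HISAT2, HTSeq and build mm10; the sources used here give no versions, annotation or strand setting. The authors' FPKM carry the same reads: the ratio of count to FPKM implied a whole gene length (within 0.01 bases) in 100% of the 11923 genes reaching 10 counts. FPKM served for per-length levels, shares and alternatives.

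In R 4.3.3, edgeR 4.0.16 kept 11480 of 16171 genes (filterByExpr, minimum count 10 and total 15), scaled libraries by TMM and ran a robust quasi-likelihood F test of THCaP against TH on all 6 libraries, with Benjamini-Hochberg adjustment over all genes and calls under 0.05. SE is the absolute log2 fold change over the square root of F. Shares were tested by exact permutation (scipy 1.17.1). The 17 alternatives include DESeq2 1.42.0, limma 3.58.1 (voom and log2 FPKM with 1 or 0.1 added), other scalings and filters, a replicate block, a fold of 1.2 and each library left out.

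The members and lists were chosen with earlier results of these data known. All members are reported; of each further list up to 4 called genes with at least 5 CPM and the largest change are named, or 2 with the highest level where none was called.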

Additional observations from a re-analysis of the deposited data

How the results depend on the processing

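Leaving out each library in turn gave 756 to 4165 calls over all genes in place of 2709, 1 to 16 members called lower in place of 8, and 0 to 1 called higher in place of 1. With unfiltered log2(FPKM + 1) these were 1294, 0 and 0, and with a fold tested against 1.2 they were 532, 1 and 0. The replicate block, fitted although replicate numbers were not found to pair libraries (correlation of same-numbered deviations -0.02, -0.07 and 0.06), gave 10 members lower and 0 higher, with Pfkl at an adjusted p of 0.0518; libraries did not all correlate best with their own number. In that fit Gpi1 (0.0350) and Kdm3a (0.0113) were called. Over the 37 tested members and 17 alternatives, 529 of 628 fits kept direction and side of the threshold, 54 lost a call, 16 gained one and 29 changed sign, the last in 7 members that were not called and in none that was. Library totals and log2 FPKM with 1, 0.1 or 1 unfiltered gave, in that order, 0.02, 0.01, 0.01 and 0.01 for Pgam1, 0.02, 0.01, 0.02 and 0.01 for Pfkfb4, 0.05, 0.04, 0.04 and 0.04 for Pdk1, and 0.05, 0.05, 0.05 and 0.05 for Gys1. With each library left out in turn the log2 fold change ran from -0.12 to 0.02 for Pgam1, -0.14 to 0.04 for Pfkfb4, -0.10 to 0.10 for Pdk1, -0.07 to 0.08 for Gys1, -0.21 to 0.02 for Egln1, -0.19 to 0.04 for Bnip3, -0.02 to 0.04 for Pdha1 and, outside the members, -0.04 to 0.13 for Dld. Pdha1 stood at -0.00085 with the stricter filter. Shares of counts in place of FPKM moved the difference in the Eno2 share to -10.15 points. The cause of these changes was not tested. P4ha2, Pygl and Ldhb were the members under 10 CPM, and the effect of depth on the calls was not tested.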
